A study of Mus musculus with 9 samples.

Results

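The genes described here are 9 hematopoietic cytokine receptors, Kit, Flt3, Csf1r, Epor, Csf3r, Csf2ra, Il3ra, Csf2rb and Il6ra, taken as every probe set that the platform annotation gives to one of these symbols alone. They are 9 of the 18193 genes measured and have 15 probe sets between them, and 1 further probe set shared by Csf2rb and its paralog Csf2rb2 is not counted among the 15. The cells came from cultures of LSK cells, the lineage-negative, Sca-1-positive, c-Kit-positive bone marrow fraction enriched for blood stem and early progenitor cells, sorted from wild-type C57/Bl6 mice. The c-Kit protein, which Kit encodes, was therefore part of the sort before culture.

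The cultures ran for 3 days on OP9 feeder layers, stromal cells of a mouse marrow line known to come from mice without functional M-CSF, and the non-adherent cells were collected. The 3 groups had 3 arrays each. OP9-DL1+CompoundE was OP9-DL1 feeder with 1 µM Compound E, an inhibitor of γ-secretase, the protease that cuts ligand-bound Notch. OP9-DL1 was the feeder that carries the Notch ligand Delta-like 1, and OP9-GFP was the feeder without it. The comparisons ask what the Notch ligand changed, what the inhibitor changed in its presence, and how cultures with both ligand and inhibitor differed from OP9-GFP, which lacks both. Every pair of these comparisons shares the 3 arrays of 1 group, so opposite signs in them are not independent of each other. The vehicle of Compound E and any cytokines added to the cultures are not given in the sources used here. The labels do not tell whether the 3 replicates of a group had separate mice or dishes, so a p-value here reflects the spread among arrays, and that spread may be technical only.

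Cytokine receptors pass the signals that keep blood progenitors alive and steer their maturation. Kit, Flt3 and Csf1r are receptor tyrosine kinases, which dimerize on binding stem cell factor, FLT3 ligand and M-CSF and phosphorylate themselves. The others lack a kinase of their own and work through JAK kinases and STAT transcription factors: Epor, for erythropoietin, and Csf3r, for G-CSF, pair with themselves, Csf2ra and Il3ra bind GM-CSF and IL-3 and signal with the common β chain Csf2rb, and Il6ra binds IL-6 and signals through gp130, the product of Il6st. Kit is a hallmark of stem cells, early progenitors and mast cells, Epor of the erythroid line, and Csf1r and Csf3r of the monocytic and granulocytic lines.

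On OP9-DL1 the 9 receptors parted into 2 sets. Kit and Epor were higher than on OP9-GFP, by 2.43-fold and 3.01-fold, and the other 7 were lower, by 1.48-fold for Il3ra up to 2.85-fold for Flt3. With Compound E all 9 went the other way against OP9-DL1: Kit was 4.22-fold lower and Epor 3.51-fold lower, and the other 7 were higher, by 1.56-fold for Csf2rb up to 3.58-fold for Csf3r. Against OP9-GFP, cultures with ligand and inhibitor had more Csf3r, Csf2ra, Il6ra and Csf1r and less Kit and Flt3.

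In OP9-DL1 against OP9-GFP, 2 of the 9 receptors were higher, where 15.9% of all genes were, and 7 were lower, where 16.7% of all genes were. All 9 had no overlap between the arrays of the groups, against 43.8% of all genes, and 5 were called and moved at least 2-fold, against 6.87%. In OP9-DL1+CompoundE against OP9-DL1, 7 were higher and 2 lower, against 25.1% and 21.6% of all genes. Again all 9 did not overlap, against 52.6% of all genes, and 7 were called and moved at least 2-fold, against 9.42%. In OP9-DL1+CompoundE against OP9-GFP, 4 were higher and 2 lower, against 12.1% and 10.6% of all genes, 6 did not overlap, against 34.8%, and 1, Csf3r, was called and moved at least 2-fold, against 1.36%. Each gene is given by its probe set of highest mean over all arrays, on the log2 scale that the authors deposited. Called means an adjusted p under 0.05 in limma, a linear model across all genes. The median log2 change of the 9 receptors was -0.74 in OP9-DL1 against OP9-GFP, where that of all genes was -0.02. It was 1.05 in OP9-DL1+CompoundE against OP9-DL1, where that of all genes was 0.08, and 0.23 in OP9-DL1+CompoundE against OP9-GFP, where that of all genes was 0.05.

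**Figure D1:**
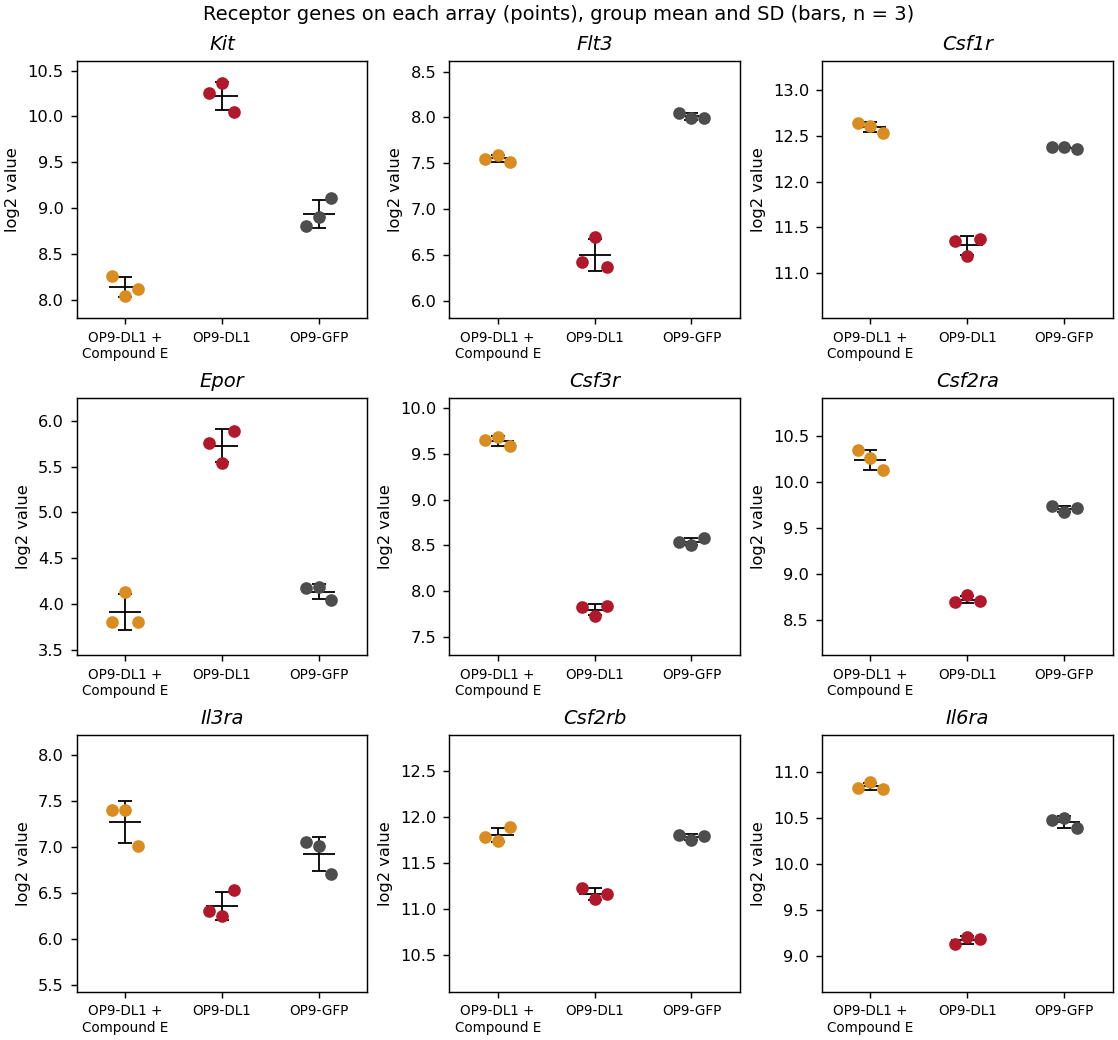
Log2 values of the 9 receptor genes on each of the 9 arrays, 1 panel a gene, with points for arrays, bars for the group mean and SD, and the groups from OP9-DL1+CompoundE on the left to OP9-GFP on the right. Kit and Epor are highest on the 3 OP9-DL1 arrays, and the other 7 genes are lowest there.

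Kit, the receptor for stem cell factor, read 8.27, 8.05 and 8.12 (log2 value) on the 3 OP9-DL1+CompoundE arrays, 10.25, 10.36 and 10.05 on OP9-DL1 and 8.81, 8.91 and 9.11 on OP9-GFP. Each OP9-DL1 array was above every other array, and each array with Compound E was below every OP9-GFP array. The log2 change was 1.28 ± 0.09 (SE) in OP9-DL1 against OP9-GFP (limma adjusted p = 9.06e-09), -2.08 ± 0.09 in OP9-DL1+CompoundE against OP9-DL1 (adjusted p = 1.44e-11) and -0.80 ± 0.09 in OP9-DL1+CompoundE against OP9-GFP (adjusted p = 1.22e-05). A dimmer Kit probe set kept the same order, at 5.43, 5.51 and 5.65 on OP9-DL1+CompoundE, 7.40, 7.73 and 7.37 on OP9-DL1 and 6.12, 6.43 and 6.42 on OP9-GFP. Kit was thus the receptor whose level with ligand and inhibitor lay furthest below OP9-GFP.

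Flt3, the kinase receptor of multipotent and lymphoid-primed progenitors and of dendritic cell precursors, read 7.55, 7.60 and 7.52 on OP9-DL1+CompoundE, 6.43, 6.70 and 6.37 on OP9-DL1 and 8.05, 7.99 and 7.99 on OP9-GFP. The groups did not overlap, with OP9-DL1 lowest and OP9-DL1+CompoundE between the other two. Flt3 fell by 1.51 ± 0.10 on the log2 scale in OP9-DL1 against OP9-GFP (limma adjusted p = 2.69e-09). It rose by 1.05 ± 0.10 in OP9-DL1+CompoundE against OP9-DL1 (adjusted p = 1.52e-07) and stayed lower than on OP9-GFP, with a log2 change of -0.46 ± 0.10 (adjusted p = 0.00299). Of the 7 receptors that were lower on OP9-DL1, Flt3 alone was also called lower in OP9-DL1+CompoundE against OP9-GFP.

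Csf1r, the M-CSF receptor of monocytes and macrophages, read 12.64, 12.61 and 12.53 on OP9-DL1+CompoundE, 11.35, 11.19 and 11.38 on OP9-DL1 and 12.37, 12.37 and 12.36 on OP9-GFP. OP9-DL1 was lowest and OP9-DL1+CompoundE highest, without overlap. The log2 change was -1.06 ± 0.05 in OP9-DL1 against OP9-GFP (limma adjusted p = 4.07e-11), 1.29 ± 0.05 in OP9-DL1+CompoundE against OP9-DL1 (adjusted p = 2.14e-12) and 0.23 ± 0.05 in OP9-DL1+CompoundE against OP9-GFP (adjusted p = 0.0032). The deposited values held an exactly equal pair among the OP9-GFP arrays for this probe set, the only such case among the 15, which narrows the measured spread of that group. The other Csf1r probe sets, which averaged 12.01 and 10.53 on OP9-DL1+CompoundE, 10.18 and 8.44 on OP9-DL1 and 11.72 and 10.09 on OP9-GFP, showed larger differences in the same directions.

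Epor, the erythropoietin receptor, was dim on all arrays, at 3.81, 4.14 and 3.81 on OP9-DL1+CompoundE, 5.76, 5.54 and 5.89 on OP9-DL1 and 4.18, 4.19 and 4.05 on OP9-GFP. The highest of 27 probe sets for bacterial transcripts, which have no target in mouse RNA, read 3.64, so every Epor value was above that level, but those outside OP9-DL1 by little. The log2 change was 1.59 ± 0.14 in OP9-DL1 against OP9-GFP (limma adjusted p = 1.51e-07) and -1.81 ± 0.14 in OP9-DL1+CompoundE against OP9-DL1 (adjusted p = 2.06e-08). With values so near background these sizes depend on the scale: on log2(linear value + 32) they were 0.78 and -0.85, and both were still called. OP9-DL1+CompoundE and OP9-GFP overlapped, with a log2 change of -0.22 ± 0.14 (adjusted p = 0.292) and an unadjusted 95% interval from -0.53 to 0.08.

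Csf3r, the G-CSF receptor of the neutrophil line, read 9.65, 9.69 and 9.58 on OP9-DL1+CompoundE, 7.83, 7.73 and 7.84 on OP9-DL1 and 8.54, 8.50 and 8.58 on OP9-GFP. The groups did not overlap, and the arrays with Compound E stood highest. Csf3r fell by 0.74 ± 0.07 on the log2 scale in OP9-DL1 against OP9-GFP (limma adjusted p = 1.44e-07), and rose by 1.84 ± 0.07 in OP9-DL1+CompoundE against OP9-DL1 (adjusted p = 1.26e-12). Its 2.14-fold higher level in OP9-DL1+CompoundE than on OP9-GFP was the largest difference between those groups among the 9 receptors, with a log2 change of 1.10 ± 0.07 (adjusted p = 1.40e-08).

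Csf2ra, the chain that binds GM-CSF, read 10.35, 10.26 and 10.13 on OP9-DL1+CompoundE, 8.69, 8.77 and 8.70 on OP9-DL1 and 9.74, 9.68 and 9.72 on OP9-GFP. The order was that of Csf1r, with no overlap. The log2 change was -0.99 ± 0.06 in OP9-DL1 against OP9-GFP (limma adjusted p = 1.89e-09), 1.52 ± 0.06 in OP9-DL1+CompoundE against OP9-DL1 (adjusted p = 5.95e-12) and 0.53 ± 0.06 in OP9-DL1+CompoundE against OP9-GFP (adjusted p = 1.45e-05). Another Csf2ra probe set averaged 9.07 on OP9-DL1+CompoundE, 7.19 on OP9-DL1 and 8.18 on OP9-GFP, the same order.

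Il3ra, the chain that binds IL-3, read 7.40, 7.40 and 7.01 on OP9-DL1+CompoundE, 6.30, 6.25 and 6.54 on OP9-DL1 and 7.05, 7.02 and 6.71 on OP9-GFP. It had 1 probe set. OP9-DL1 was below both other groups on every array, while OP9-DL1+CompoundE and OP9-GFP overlapped. Il3ra fell by 0.56 ± 0.13 on the log2 scale in OP9-DL1 against OP9-GFP (limma adjusted p = 0.00333) and rose by 0.91 ± 0.13 in OP9-DL1+CompoundE against OP9-DL1 (adjusted p = 2.86e-05). In OP9-DL1+CompoundE against OP9-GFP the log2 change of 0.35 ± 0.13 was not called (adjusted p = 0.0754, unadjusted 95% interval 0.06 to 0.63). Without replicate 3 of OP9-DL1+CompoundE it was 0.48 and was called (adjusted p = 0.0163).

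Csf2rb, the β chain shared by the GM-CSF, IL-3 and IL-5 receptors, read 11.79, 11.74 and 11.89 on OP9-DL1+CompoundE, 11.22, 11.10 and 11.16 on OP9-DL1 and 11.81, 11.75 and 11.79 on OP9-GFP. On this probe set OP9-DL1 stood apart from both other groups, which overlapped. The log2 change was -0.62 ± 0.05 in OP9-DL1 against OP9-GFP (limma adjusted p = 2.70e-08), 0.64 ± 0.05 in OP9-DL1+CompoundE against OP9-DL1 (adjusted p = 1.20e-08) and 0.02 ± 0.05 in OP9-DL1+CompoundE against OP9-GFP (adjusted p = 0.773, unadjusted 95% interval -0.08 to 0.13). Another Csf2rb probe set read 11.56, 11.54 and 11.71 on OP9-DL1+CompoundE, 10.55, 10.66 and 10.54 on OP9-DL1 and 11.49, 11.50 and 11.39 on OP9-GFP. Its differences were larger, with log2 changes of -0.87 in OP9-DL1 against OP9-GFP and 1.02 in OP9-DL1+CompoundE against OP9-DL1. Its arrays with Compound E all lay above those of OP9-GFP, by a log2 change of 0.15 ± 0.05 that was not called (limma adjusted p over all probe sets = 0.0721). Csf2rb2, a near-identical paralog that in mice serves IL-3 alone and was chosen after its values were seen, averaged 10.96 ± 0.07 on OP9-DL1+CompoundE, 10.14 ± 0.18 on OP9-DL1 and 11.08 ± 0.04 on OP9-GFP (SD, n = 3 each) on its own probe set. The probe set that the 2 genes share averaged 8.88 on OP9-DL1+CompoundE, 7.08 on OP9-DL1 and 8.35 on OP9-GFP, and it was called higher in OP9-DL1+CompoundE against OP9-GFP (log2 change 0.53 ± 0.09, adjusted p over all probe sets = 0.00102). Probes of such close copies can read each other's transcripts, so the split between Csf2rb and Csf2rb2 is uncertain.

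Il6ra, the chain that binds IL-6, read 10.82, 10.89 and 10.82 on OP9-DL1+CompoundE, 9.13, 9.21 and 9.18 on OP9-DL1 and 10.48, 10.50 and 10.38 on OP9-GFP. The groups did not overlap, with OP9-DL1 lowest and OP9-DL1+CompoundE highest. The log2 change was -1.28 ± 0.05 in OP9-DL1 against OP9-GFP (limma adjusted p = 1.05e-11), 1.67 ± 0.05 in OP9-DL1+CompoundE against OP9-DL1 (adjusted p = 2.51e-13) and 0.39 ± 0.05 in OP9-DL1+CompoundE against OP9-GFP (adjusted p = 6.07e-05). Another Il6ra probe set averaged 7.17 on OP9-DL1+CompoundE, 5.54 on OP9-DL1 and 6.69 on OP9-GFP. Il6st, which encodes the signalling partner gp130 and was chosen after its values were seen, was lower on OP9-DL1 too, at 10.45 ± 0.08 on OP9-DL1+CompoundE, 9.52 ± 0.09 on OP9-DL1 and 10.46 ± 0.07 on OP9-GFP (SD, n = 3 each).

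**Figure D2:**
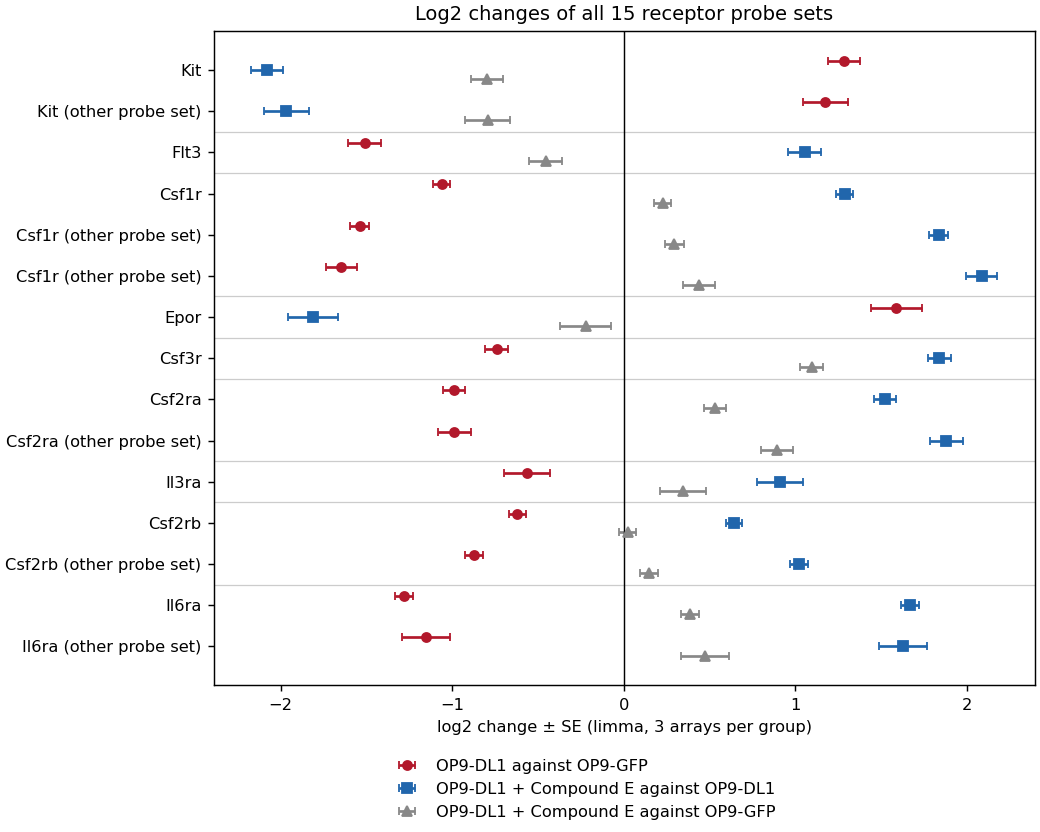
Log2 change of each of the 15 receptor probe sets in the 3 comparisons, with error bars for the SE of the linear model and a line at 0. In OP9-DL1 against OP9-GFP 3 probe sets lie above 0 and 12 below, and in OP9-DL1+CompoundE against OP9-DL1 12 lie above and 3 below.

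The probe sets of a gene moved together. Of the 15, 3 were higher and 12 lower in OP9-DL1 against OP9-GFP, and 12 were higher and 3 lower in OP9-DL1+CompoundE against OP9-DL1, with no overlap between arrays for any of them. Of the same 15, 8 were higher, 3 lower and 4 not called in OP9-DL1+CompoundE against OP9-GFP. Among all genes, by 1 probe set each, 15.9% were higher and 16.7% lower in the first of these comparisons. In the second 25.1% were higher and 21.6% lower, and in the third 12.1% and 10.6%. The arrays did not overlap for 43.8% of all genes in the first and 52.6% in the second. Shares over all probe sets are not given here. For each of the 5 genes with several probe sets they had the same sign in the first 2 comparisons, while 4 genes had 1 probe set and no such check.

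The promoter windows of the receptors that moved in opposite directions are shown with short motifs of blood transcription factors. They are the 250 bases before the annotated start, 5′ to 3′ on the gene's strand, from RefSeq on build GRCm38.p6. The sequences are those of Kit (chr5:75574737-75574986, plus strand) and Epor (chr9:21963577-21963826, minus strand), which were higher on OP9-DL1, and of Csf3r (chr4:126024409-126024658, plus strand) and Csf2ra (chr19:61228419-61228668, minus strand), which were lower. Capitals mark every match, on either strand, to the PU.1 motif GAGGAA, the GATA motif AGATAA, the RUNX motif TGTGGT, the RBPJ (Notch) motif TGGGAA, the C/EBP motif TTGCNNAA or the STAT motif TTCNNNGAA.
Kit: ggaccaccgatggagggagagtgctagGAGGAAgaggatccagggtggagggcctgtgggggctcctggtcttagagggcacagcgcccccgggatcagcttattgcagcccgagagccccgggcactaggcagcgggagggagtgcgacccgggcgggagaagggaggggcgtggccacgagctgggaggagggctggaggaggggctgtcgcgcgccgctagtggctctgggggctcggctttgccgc
Epor: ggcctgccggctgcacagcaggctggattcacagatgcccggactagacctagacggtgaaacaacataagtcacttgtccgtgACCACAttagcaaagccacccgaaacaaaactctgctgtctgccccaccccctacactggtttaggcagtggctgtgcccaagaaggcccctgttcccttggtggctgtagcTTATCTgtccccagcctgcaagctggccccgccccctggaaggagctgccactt
Csf3r: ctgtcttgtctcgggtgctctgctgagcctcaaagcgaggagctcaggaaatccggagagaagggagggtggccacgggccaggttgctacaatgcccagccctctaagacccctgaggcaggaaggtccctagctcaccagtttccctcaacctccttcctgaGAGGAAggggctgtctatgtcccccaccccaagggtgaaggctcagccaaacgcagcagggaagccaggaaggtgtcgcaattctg
Csf2ra: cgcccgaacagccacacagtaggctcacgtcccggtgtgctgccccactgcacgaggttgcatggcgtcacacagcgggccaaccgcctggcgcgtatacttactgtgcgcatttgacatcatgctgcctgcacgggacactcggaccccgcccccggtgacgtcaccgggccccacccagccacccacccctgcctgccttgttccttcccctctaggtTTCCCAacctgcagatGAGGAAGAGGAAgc
The Kit window held a PU.1 match at -223 to -218 from the start. That of Epor held a GATA match at -54 to -49 and a RUNX match at -166 to -161, both on the opposite strand, where they read TTATCT and ACCACA. That of Csf3r held a PU.1 match at -86 to -81. That of Csf2ra held a pair of adjoining PU.1 matches at -14 to -9 and -8 to -3 and an RBPJ match at -30 to -25 on the opposite strand, which reads TTCCCA.

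Over the 7 receptor genes with a RefSeq promoter entry, which leave out Csf1r and Csf2rb, PU.1 matches were found in 4 (Csf2ra, Csf3r, Il6ra and Kit), where 23.3% of 32851 promoters hold one. GATA matches were found in Epor and Il6ra, against 9.99% of all promoters, and RBPJ matches in Csf2ra and Il6ra, against 21.6%. A RUNX match was found in Epor, against 14.0%, a C/EBP match in Il3ra, against 9.56%, and a STAT match in none, against 7.02%. Flt3 had a match to none of the 6 motifs. A match describes letters in the window and is neither a site nor a cause, and a window without one says nothing about the factor.

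Of 18 measured transcription factors known to act on receptor genes, 10 were higher and 6 lower in OP9-DL1 against OP9-GFP, with a median log2 change of 0.38. With the inhibitor, in OP9-DL1+CompoundE against OP9-DL1, 4 were higher and 11 lower, with a median of -0.61, and in OP9-DL1+CompoundE against OP9-GFP 2 were higher and 12 lower, with a median of -0.34. These counts, and those of the lists that follow, stand beside the shares of all genes given for the receptors. Gata1, the factor of the erythroid, megakaryocytic and mast cell lines that binds the Epor gene, averaged 6.27 ± 0.05 on OP9-DL1+CompoundE, 9.25 ± 0.06 on OP9-DL1 and 7.10 ± 0.01 on OP9-GFP (SD, n = 3 each). Gata2, a factor of stem and mast cells, averaged 9.15 ± 0.20 on OP9-DL1+CompoundE, 11.87 ± 0.04 on OP9-DL1 and 10.05 ± 0.08 on OP9-GFP. Both factors, like Kit, were highest on OP9-DL1 and lower with ligand and inhibitor than on OP9-GFP.

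Irf8, a factor of monocytes and dendritic cells, fell by 1.52 on the log2 scale in OP9-DL1 against OP9-GFP (limma adjusted p = 1.14e-11) and rose by 1.24 in OP9-DL1+CompoundE against OP9-DL1. Mitf, a factor of melanocytes, mast cells and osteoclasts, averaged 11.01 ± 0.05 on OP9-DL1+CompoundE, 9.32 ± 0.04 on OP9-DL1 and 10.89 ± 0.03 on OP9-GFP (SD, n = 3 each). Another Mitf probe set, dimmer, changed by -0.77 in OP9-DL1 against OP9-GFP, where the one used changed by -1.56. Spi1, which encodes PU.1, and Cebpb, a C/EBP factor of the myeloid line, were both chosen after their values were seen. Spi1 averaged 10.19 ± 0.08 on OP9-DL1+CompoundE, 8.81 ± 0.03 on OP9-DL1 and 9.73 ± 0.01 on OP9-GFP, the order of Csf1r, Csf2ra, Csf3r and Il6ra. Cebpb averaged 9.08 ± 0.22 on OP9-DL1+CompoundE, 7.25 ± 0.08 on OP9-DL1 and 8.03 ± 0.08 on OP9-GFP, again the same order. Some other factors of the list did not share it. Cebpa averaged 11.44 on OP9-DL1+CompoundE, 11.53 on OP9-DL1 and 11.81 on OP9-GFP. Runx1 was highest on OP9-DL1, at 10.30, against 9.93 on OP9-DL1+CompoundE and 10.04 on OP9-GFP. Gfi1 was not called in OP9-DL1 against OP9-GFP or in OP9-DL1+CompoundE against OP9-DL1. Cebpa, Runx1 and Gfi1 were also named after their values were seen.

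**Figure D3:**
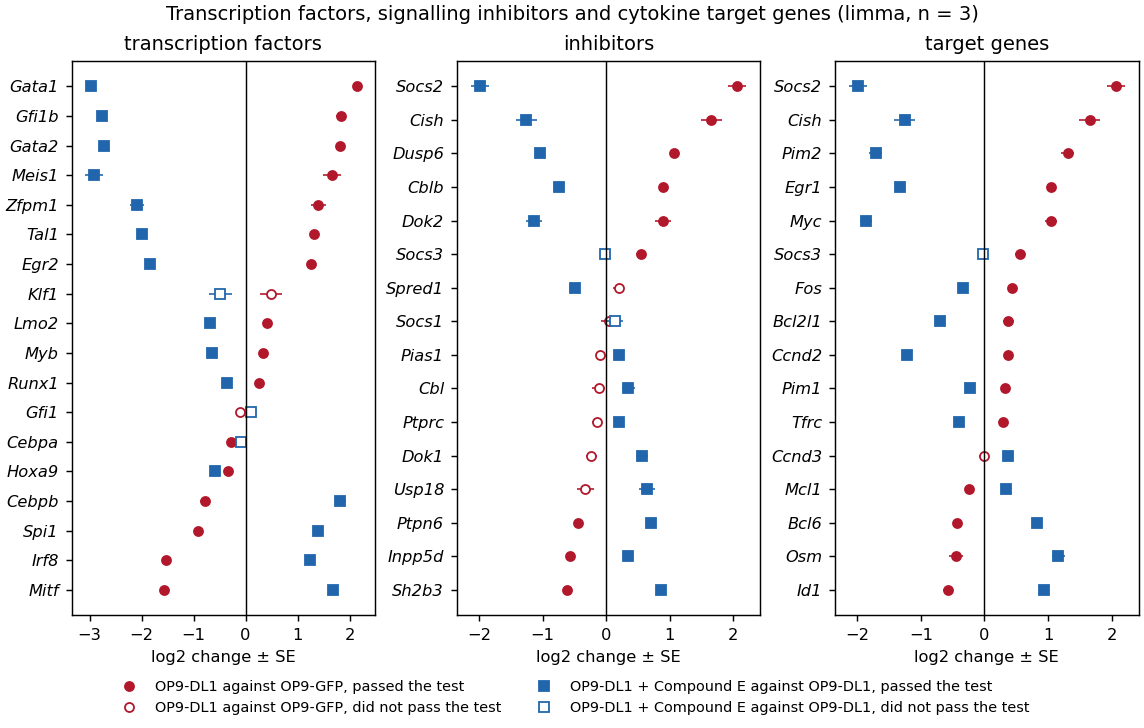
Log2 changes, with SE, of transcription factors of receptor genes, inhibitors of cytokine signalling and cytokine target genes in OP9-DL1+CompoundE against OP9-DL1 and in OP9-DL1 against OP9-GFP, with 1 row a gene. Open symbols did not pass the test. Among the transcription factors Gata1 lies furthest right in OP9-DL1 against OP9-GFP, while Mitf and Irf8 lie furthest left.

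Among 25 measured chains of other cytokine receptors, 7 were higher and 12 lower in OP9-DL1 against OP9-GFP, with a median log2 change of -0.09. For OP9-DL1+CompoundE against OP9-DL1, 11 were higher and 8 lower, with a median of 0.12, and in OP9-DL1+CompoundE against OP9-GFP 9 were higher and 4 lower, with a median of 0.12. Il2rb and Il9r were at the level of the bacterial probe sets on every array. Il13ra1, a chain for IL-4 and IL-13, averaged 9.77 ± 0.08 on OP9-DL1+CompoundE, 7.18 ± 0.11 on OP9-DL1 and 9.02 ± 0.12 on OP9-GFP (SD, n = 3 each). The interferon receptor chains Ifnar1 and Ifngr2 fell by 1.19 and 1.39 on the log2 scale in OP9-DL1 against OP9-GFP and rose by 1.33 and 1.78 in OP9-DL1+CompoundE against OP9-DL1. Their other probe sets, both dimmer, changed by -0.94 and -0.66 and by 0.73 and 1.13 in these comparisons, and the other 4 of Il13ra1 by -1.77 to -0.34 and by 1.03 to 2.89. These 3 chains followed the direction of the 7 receptors that were lower on OP9-DL1.

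Il1r1, the IL-1 receptor, went the other way, at 9.29 ± 0.07 on OP9-DL1+CompoundE, 10.33 ± 0.10 on OP9-DL1 and 8.66 ± 0.11 on OP9-GFP (SD, n = 3 each), although another probe set of it, at background, changed by -0.07 in OP9-DL1 against OP9-GFP. Il7r, the IL-7 receptor of lymphoid progenitors, was chosen after its values were seen: it averaged 5.59 ± 0.33 on OP9-DL1+CompoundE, 5.51 ± 0.25 on OP9-DL1 and 6.65 ± 0.23 on OP9-GFP. Its level on OP9-DL1+CompoundE overlapped that on OP9-DL1, and the log2 change between these groups was 0.08 ± 0.18 (SE), which was not called.

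**Figure D4:**
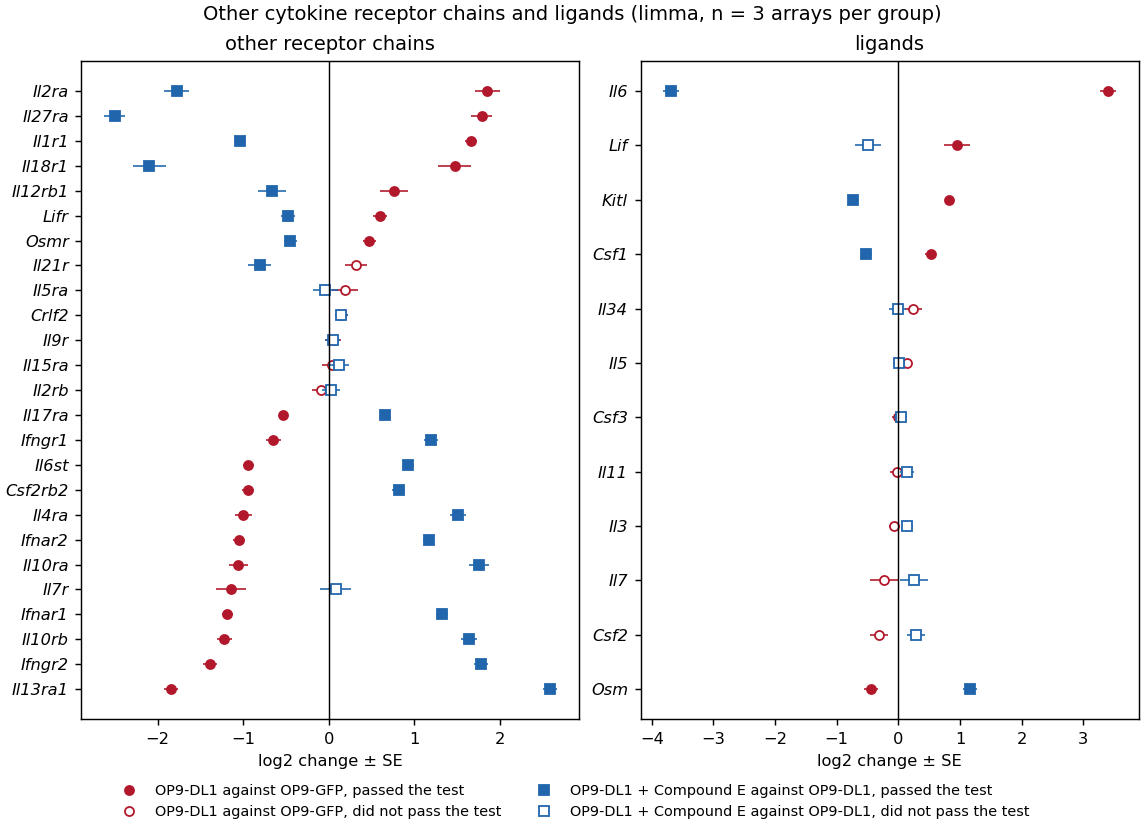
Log2 changes, with SE, of other cytokine receptor chains and of cytokine ligands in OP9-DL1+CompoundE against OP9-DL1 and in OP9-DL1 against OP9-GFP, with 1 row a gene. Il6 stands furthest from 0 among the ligands, at 3.40 in OP9-DL1 against OP9-GFP and -3.69 in OP9-DL1+CompoundE against OP9-DL1.

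Of the 12 measured ligands 4 were higher and 1 lower in OP9-DL1 against OP9-GFP, with a median log2 change of 0.07. The ligands Csf2, Csf3, Il3, Il5, Il11 and Il34 were at the level of the bacterial probe sets on every array. With the inhibitor, in OP9-DL1+CompoundE against OP9-DL1, 1 was higher and 3 lower, with a median of 0.02, and in OP9-DL1+CompoundE against OP9-GFP 1 was higher and none lower, with a median of 0.08. Il6, the ligand of Il6ra, read 4.61, 4.33 and 4.62 on OP9-DL1+CompoundE, 8.23, 8.30 and 8.10 on OP9-DL1 and 4.89, 4.80 and 4.72 on OP9-GFP. The ligand was thus high on the same 3 arrays on which Il6ra and Il6st were low. Its log2 change was 3.40 ± 0.13 (SE) in OP9-DL1 against OP9-GFP (limma adjusted p = 3.31e-12) and -3.69 ± 0.13 in OP9-DL1+CompoundE against OP9-DL1 (adjusted p = 6.19e-13).

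Kitl, which encodes stem cell factor, the ligand of Kit, averaged 9.26 ± 0.06 on OP9-DL1+CompoundE, 10.00 ± 0.05 on OP9-DL1 and 9.17 ± 0.13 on OP9-GFP (SD, n = 3 each). Csf1, which encodes M-CSF, the ligand of Csf1r, averaged 7.28 ± 0.07 on OP9-DL1+CompoundE, 7.80 ± 0.07 on OP9-DL1 and 7.28 ± 0.14 on OP9-GFP. Both were highest on OP9-DL1, where Kit was high and Csf1r low. The other 3 Csf1 probe sets, all dimmer, changed by 0.16 to 0.18 in OP9-DL1 against OP9-GFP, where the one used changed by 0.52, and the other 3 of Kitl by 0.34 to 0.85, where the one used changed by 0.83. OP9 cells lack functional M-CSF, and the arrays do not tell which cells a transcript came from or whether its protein works. Among feeder markers, 14 of 19 measured were higher and none lower in OP9-DL1 against OP9-GFP, with 2 higher and 14 lower in OP9-DL1+CompoundE against OP9-DL1. The mean level of those markers ran from 8.48 to 8.62 on OP9-DL1+CompoundE, was 9.26 on each OP9-DL1 array and ran from 8.44 to 8.51 on OP9-GFP, with Lepr, Dcn and Lum at background. The part of feeder RNA in the Kitl, Csf1 and Il6 levels was not tested. Osm, which encodes oncostatin M, a ligand that also signals through gp130, fell by 0.45 on the log2 scale in OP9-DL1 against OP9-GFP and rose by 1.16 in OP9-DL1+CompoundE against OP9-DL1.

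Downstream of the receptors, 6 of 24 measured signal transducers were higher and 7 lower in OP9-DL1 against OP9-GFP, with a median log2 change of 0.03. For OP9-DL1+CompoundE against OP9-DL1, 11 were higher and 6 lower, with a median of 0.14, and in OP9-DL1+CompoundE against OP9-GFP 10 were higher and 3 lower, with a median of 0.15. Of all genes 15.9% were higher and 16.7% lower in the first of these comparisons, 25.1% and 21.6% in the second, and 12.1% and 10.6% in the third, and no share of this list is read as particular to it. The kinase Fyn averaged 9.50 ± 0.12 on OP9-DL1+CompoundE, 11.08 ± 0.10 on OP9-DL1 and 9.87 ± 0.06 on OP9-GFP (SD, n = 3 each). Stat6, which acts below the IL-4 receptor, fell by 0.83 on the log2 scale in OP9-DL1 against OP9-GFP, and Pik3cd, a PI3-kinase subunit of blood cells, rose by 1.17 in OP9-DL1+CompoundE against OP9-DL1, where its other 5 probe sets, all dimmer, changed by 0.07 to 1.27. Plcg1, a phospholipase recruited by receptor kinases, rose by 1.09 in OP9-DL1 against OP9-GFP, but its other probe sets, both dim, changed by 0.01 and 0.22.

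Among 16 genes that cytokine signalling is known to induce, 11 were higher and 4 lower in OP9-DL1 against OP9-GFP, with a median log2 change of 0.37. With the inhibitor, in OP9-DL1+CompoundE against OP9-DL1, 5 were higher and 10 lower, with a median of -0.37, and in OP9-DL1+CompoundE against OP9-GFP 5 were higher and 6 lower, with a median of 0.10. Socs2, Socs3 and Cish, all called higher in OP9-DL1 against OP9-GFP, are also counted among the inhibitors of cytokine signalling that follow. Osm is also counted among the ligands. Socs3 and Cish were named after their values were seen. Egr1, an immediate early gene of receptor kinase signalling, averaged 11.38 ± 0.04 on OP9-DL1+CompoundE, 12.71 ± 0.05 on OP9-DL1 and 11.66 ± 0.05 on OP9-GFP (SD, n = 3 each). The kinase gene Pim2, the cyclin gene Ccnd2 and Myc rose by 1.31, 0.36 and 1.05 on the log2 scale in OP9-DL1 against OP9-GFP, and fell by 1.71, 1.22 and 1.86 in OP9-DL1+CompoundE against OP9-DL1. Myc was chosen by the second of these comparisons and is also a direct Notch target in T cell progenitors.

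Of 16 inhibitors of cytokine signalling, 6 were higher and 3 lower in OP9-DL1 against OP9-GFP, with a median log2 change of -0.03. The count of 3 became 5 without replicate 3 of OP9-DL1+CompoundE, which enters through the pooled spread. For OP9-DL1+CompoundE against OP9-DL1, 8 were higher and 6 lower, with a median of 0.16, and in OP9-DL1+CompoundE against OP9-GFP 5 were higher and 2 lower, with a median of 0.16. Of all genes 15.9% were higher and 16.7% lower in the first of these comparisons. The shares were 25.1% and 21.6% in the second, and 12.1% and 10.6% in the third. No share of this list is read as particular to it. Socs2, a STAT5-induced inhibitor, averaged 4.89 ± 0.22 on OP9-DL1+CompoundE, 6.88 ± 0.15 on OP9-DL1 and 4.81 ± 0.12 on OP9-GFP (SD, n = 3 each). Its other 5 probe sets, all dimmer, changed by -0.09 to 0.96 in OP9-DL1 against OP9-GFP, where the one used changed by 2.06. Dusp6, a phosphatase that ends ERK signalling, rose by 1.07 on the log2 scale in OP9-DL1 against OP9-GFP and fell by 1.04 in OP9-DL1+CompoundE against OP9-DL1. Cblb, a ubiquitin ligase for activated receptors, rose by 0.90 and fell by 0.74 in these comparisons. Its other probe sets changed by 0.36 and 0.74 in OP9-DL1 against OP9-GFP, and by -1.75 and -0.08 in OP9-DL1+CompoundE against OP9-DL1, so the size of the change depends on the probe set. Sh2b3, an adaptor that restrains Kit and JAK2, moved opposite to Dusp6 and Cblb, with log2 changes of -0.62 and 0.86 in these comparisons.

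In these bulk samples fewer cells of a type and less RNA per cell cannot be told apart, and markers of several cell types moved with the receptors. Their counts stand beside shares of all genes of 15.9% higher and 16.7% lower in OP9-DL1 against OP9-GFP. In OP9-DL1+CompoundE against OP9-DL1 the shares were 25.1% and 21.6%, and in OP9-DL1+CompoundE against OP9-GFP 12.1% and 10.6%. Of 18 macrophage markers none were higher and 14 lower in OP9-DL1 against OP9-GFP, and 12 were higher and 1 lower in OP9-DL1+CompoundE against OP9-DL1. Between OP9-DL1+CompoundE and OP9-GFP, 8 were higher and 5 lower in OP9-DL1+CompoundE. Their mean level ran from 8.12 to 8.17 on OP9-DL1+CompoundE, 6.77 to 6.89 on OP9-DL1 and 8.43 to 8.46 on OP9-GFP, with C1qa and Vsig4 at background. Fcgr1, a high-affinity Fc receptor, averaged 10.30 ± 0.04 on OP9-DL1+CompoundE, 6.36 ± 0.07 on OP9-DL1 and 9.74 ± 0.05 on OP9-GFP (SD, n = 3 each). In the first 2 of these comparisons the direction is that of Csf1r and Csf2ra, and the part of macrophage number in their change was not tested. Of 14 granulocyte markers 7 were higher and 6 lower in OP9-DL1 against OP9-GFP, where Csf3r was lower, 5 higher and 7 lower in OP9-DL1+CompoundE against OP9-DL1, and 8 higher and 4 lower in OP9-DL1+CompoundE against OP9-GFP.

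All 13 measured megakaryocyte markers were higher in OP9-DL1 against OP9-GFP and lower in OP9-DL1+CompoundE against OP9-DL1, the direction of Kit and Epor, and 1 was higher and 10 lower in OP9-DL1+CompoundE against OP9-GFP. Their mean level ran from 8.24 to 8.29 on OP9-DL1+CompoundE, 10.28 to 10.35 on OP9-DL1 and 8.62 to 8.69 on OP9-GFP. Of 11 mast cell and basophil markers, 7 were higher and 1 lower in OP9-DL1 against OP9-GFP and 8 were lower and none higher in OP9-DL1+CompoundE against OP9-DL1, with Tpsab1 at background. Their mean level was 5.72 to 5.75 on OP9-DL1+CompoundE, 7.65 to 7.66 on OP9-DL1 and 6.39 to 6.43 on OP9-GFP. The mast cell protease gene Mcpt1 stood at 2.56 ± 0.04 on OP9-DL1+CompoundE, 7.64 ± 0.13 on OP9-DL1 and 2.52 ± 0.06 on OP9-GFP (SD, n = 3 each), at background outside OP9-DL1. Of the other protease genes listed, Mcpt4 and Cpa3 were higher in OP9-DL1 against OP9-GFP and Tpsb2 was lower. Cma1, Mcpt8 and Tpsab1 were not called there. Tpsb2, Cma1 and Mcpt8 were named after their values were seen.

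Of the erythroid markers, genes of the line that Epor serves, 4 of 11 were higher and none lower in OP9-DL1 against OP9-GFP, 4 were lower in OP9-DL1+CompoundE against OP9-DL1, and Hba-a1, Alas2 and Rhag were at background on every array. In both comparisons the 4 were Car1, Car2, Aqp1 and Tfrc, and Tfrc was also counted among the cytokine target genes. Klf1, Slc4a1, Ermap and Rhd were not called in either. Car1 and these uncalled genes were named after their values were seen. The mean level of the 11 erythroid markers was 4.90 to 5.07 on OP9-DL1+CompoundE, 5.61 on each OP9-DL1 array and 5.21 to 5.26 on OP9-GFP. Stem and progenitor markers were 6 of 11 higher and 4 lower in OP9-DL1 against OP9-GFP, and 1 higher and 8 lower in OP9-DL1+CompoundE against OP9-DL1. The part of each of these cell types in the Kit and Epor values was not tested.

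**Figure D5:**
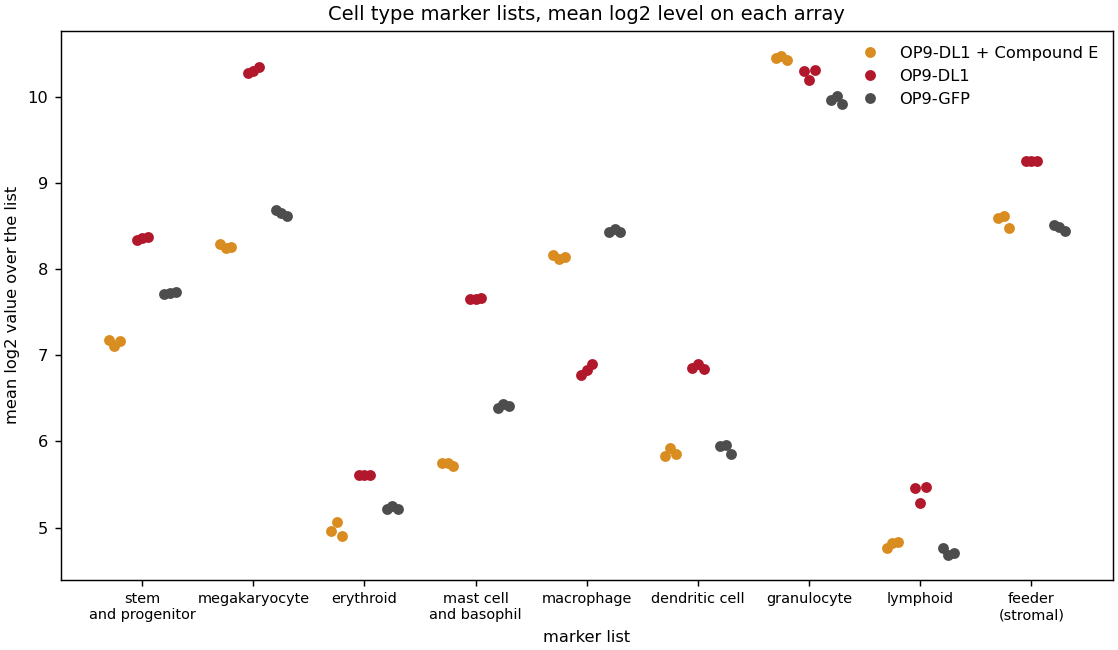
Mean log2 level of each marker list on each array, with 1 point an array and the groups from OP9-DL1+CompoundE to OP9-GFP. Megakaryocyte, mast cell and feeder markers are highest on OP9-DL1, at 10.28 to 10.35, 7.65 to 7.66 and 9.26, and macrophage markers are lowest there, at 6.77 to 6.89. Stem and progenitor, erythroid, dendritic cell and lymphoid markers are highest on OP9-DL1 too, and granulocyte markers on OP9-DL1+CompoundE.

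For each receptor the genes of most similar pattern were taken as those with the highest Pearson r over the 9 arrays among 1934 genes that, like it, differed by at least 1 log2 unit between group means. The 9 arrays fall into 3 groups, so r here mostly reflects the group means and no p is given. For Kit they were Mex3b and Med12l (r of 0.9956 and 0.9954), and for Epor Stra6l and the tetraspanin gene Cd9 (0.9972 and 0.9946). For Flt3 they were Klk1b11 and Clec4b1 (0.9957 and 0.9906), and for Csf1r the neutrophil collagenase gene Mmp8 and the nucleotide receptor gene P2ry6 (0.9989 and 0.9986). For Csf3r they were the lactate transporter gene Slc16a3 and Rtp4 (0.9982 and 0.9977), for Csf2ra Cln3 and Bri3 (0.9973 and 0.9968), and for Il6ra Tlr13 and Pld4 (0.9995 and 0.9989), both genes of the endolysosome. Il3ra and Csf2rb, whose group means spanned 0.91 and 0.64, did not reach the range of 1 and have none.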

How the data were processed

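RNA of 9 mouse cultures was measured on single-colour oligonucleotide arrays, 1 array a sample, from 25 ng of amplified RNA per the labels' protocols. The values are log2 signals as the authors deposited them, 1 for each array and probe set. MAS5 and GCRMA 2.4.1 were used per the submitters' processing notes, with role and order not given there. Folds of dim genes such as Epor can depend on which of these made the values, and the direction of that effect was not tested. The number of arrays limits the precision, and depth has no counterpart on an array. Groups came from the sample titles.

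Gene names came from the platform annotation: of 45101 probe sets, 34945 had 1 symbol, 932 several, 9160 none and 64 were controls. For 34741 of those with 1 symbol the Entrez ID was found in RefSeq (GRCm38.p6), and the RefSeq name was used. A gene was its probe set of highest mean over the 9 arrays. Background was judged by 27 bacterial probe sets, at 2.24 to 3.64. Array medians ran from 4.78 to 4.94.

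The test across all 18193 genes was limma 3.58.1 under R 4.3.3 on the 9 arrays together (lmFit, then eBayes with trend), without covariate, filter or further normalization. Benjamini-Hochberg adjustment ran over every gene in a comparison, calls were made at 0.05, and the procedure was tested on simulated data. Lists were described by counts and medians. Named list genes were up to 3 of smallest p per list in each of the first 2 comparisons, and any other gene is marked in the text as picked later. The receptors and all 15 lists were chosen with earlier results of these data known. Genes listed but without a probe set of their own, such as Epo and Flt3l, were not analysed here. Promoters came from a RefSeq table of 32851 entries.

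Alternatives were log2(linear value + 32), quantile normalization, centring arrays on their medians, no intensity trend, averaging the probe sets of each gene, genes above the median brightness, all probe sets, the 6 arrays compared, a 2-fold threshold, the replicate number as a block and each array left out. A filter on genes with exactly equal values within a group was added after the data were seen.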

Additional observations from a re-analysis of the deposited data

How the results depend on the processing

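Of 507 receptor gene values under 19 other settings, 502 kept their direction and their side of the threshold. The 1 that changed sign was Csf2rb in OP9-DL1+CompoundE against OP9-GFP, -0.021 without OP9-DL1+CompoundE replicate 3 (limma adjusted p = 0.797), against 0.023 with all arrays, and leaving out each array in turn gave -0.021 to 0.057. The other 4 were Il3ra in the same comparison, which passed with quantile normalization (0.39, adjusted p = 0.0388), median centring (0.44, 0.0194), genes above the median brightness (0.35, 0.0431) and without OP9-DL1+CompoundE replicate 3 (0.48, 0.0163). Requiring a 2-fold change left 5 of 9 receptors in OP9-DL1 against OP9-GFP, 7 of 9 in OP9-DL1+CompoundE against OP9-DL1 and 1 of 6 in OP9-DL1+CompoundE against OP9-GFP. Median centring moved the median change of all genes to 0.21 in OP9-DL1+CompoundE against OP9-DL1, against 0.08 as deposited. The filter on equal values removed Csf1r, and the restriction to genes above the median brightness removed Epor. Those settings therefore say nothing about these genes.

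With the replicate number as a block, the replicate block fit called 9, 9 and 6 receptors in the 3 comparisons, as without it. Deviations of same-numbered arrays correlated at -0.11 to 0.12, and those of differently numbered arrays at -0.14 to 0.09. With group means of 3 arrays, such correlations cannot tell whether the numbers pair the samples. The block changed no receptor call. Among list counts, 1618 of 1710 stayed within 1.5 times. Those that moved in the text include inhibitors lower in OP9-DL1 against OP9-GFP, 3 as reported and 6 with median centring, and target genes higher in OP9-DL1+CompoundE against OP9-GFP, 5 as reported and 9 with median centring. The cause was not tested. Precision is limited by 3 arrays a group, by values near background for Epor and by equal values in the deposited table for Csf1r.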

Other observations

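Dendritic cell and lymphoid markers belong to lines that Flt3 serves. Flt3 was lower on OP9-DL1, while 4 of 9 dendritic cell markers were higher and 3 lower there against OP9-GFP, and 7 of 13 lymphoid markers were higher and 1 lower. The integrin gene Itgax rose by 4.03 on the log2 scale (limma adjusted p = 2.14e-13) and the chemokine receptor gene Ccr7 by 4.40 (7.36e-13), and in OP9-DL1+CompoundE against OP9-DL1 they fell by 3.81 and 4.25. Ccr7 averaged 7.52 on OP9-DL1 but was at background elsewhere, at 3.27 on OP9-DL1+CompoundE and 3.12 on OP9-GFP. The size of its changes therefore depends on the background level. Dntt, the DNA polymerase of early lymphoid cells, rose by 2.02 in OP9-DL1 against OP9-GFP and Cd7, a T-lineage surface gene, by 2.46. In the same comparison the dendritic cell markers Siglech and Cd74 and the lymphoid marker Cd79b changed by -1.03, -0.40 and -0.81. These genes were named after their values were seen. The markers Cd209a and Xcr1 among dendritic and Cd79a, Rag1 and Cd3e among lymphoid ones were at background on every array. The counts in OP9-DL1 against OP9-GFP include Cd209a as lower and Cd3e as higher.

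Granulocyte genes moved in both directions. Mmp8 fell by 4.52 on the log2 scale in OP9-DL1 against OP9-GFP, while Lcn2 and Camp rose by 1.74 and 2.45. In OP9-DL1+CompoundE against OP9-GFP, where Csf3r rose by 1.10, the formyl peptide receptor gene Fpr2 rose by 1.53, Lcn2 by 1.17 and Camp by 1.22. Of the 14 granulocyte markers 8 were higher and 4 lower there. The 4 lower ones were the primary granule genes Elane, Prtn3, Ctsg and Mpo, named after their values were seen, which fell by 0.31, 0.23, 0.21 and 0.17.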
